A study of Mus musculus with 3 samples.

Results

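The genes of antigen presentation by the major histocompatibility complex (MHC) were followed in group 2 innate lymphoid cells (ILC2s), tissue lymphocytes that lack T and B cell receptors and release type 2 cytokines. Members were all genes whose mouse symbol starts with H2- plus B2m, Cd74, Ciita, Nlrc5, Tap1, Tap2, Tapbp, Cd1d1, Mr1, Rfx5, Rfxank and Rfxap. This gave 50 genes, 38 by prefix and 12 by name, of the 27179 counted genes. The study, whose title concerns the clock of gut ILC3s, holds 1 group of 3 libraries from wild-type C57BL/6 mice, with no treatment named, called mouse 1, 2 and 3 after the sample numbers. The sample titles do not say whether a library came from 1 mouse or from several, so these names stand for libraries. Cells had been sorted on CD45, CD90.2, CD127 and KLRG1 and against CD3, CD5, CD8, NK1.1, CD11b, CD11c and B220. The sources used here do not give the tissue, age or sex.

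MHC class I molecules pair a heavy chain with beta-2-microglobulin (B2m) and show peptides from inside the cell, which the TAP transporter brings into the endoplasmic reticulum. Class II molecules pair an alpha and a beta chain, travel with the invariant chain (Cd74), and receive peptides from engulfed proteins with the help of H2-DM, which H2-O restrains. Class II genes are usually switched on by the coactivator CIITA, and class I genes by its relative NLRC5, both through the RFX, CREB and NF-Y proteins bound at a conserved promoter module. Class II is best known on B cells, dendritic cells and macrophages, and ILC2s have been described to carry it and to present antigen to CD4+ T cells. Mice of the C57BL/6 strain carry the H-2b haplotype, in which the H2-Ea gene is defective, so that I-A is their class II molecule at the surface.

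Depth was 17819551 to 26374248 counts per library, at which 3 counts, the limit that a count of 0 allows, equal a CPM (counts per 1000000 counts of the scaled library) of 0.115 to 0.171. These limits cover counting error only. All 13 ILC2 markers of a list, among them Gata3 and Il1rl1, reached 1 CPM in every library. Some markers of other cells were detected too, such as Cd79b of B cells at 129 to 155 CPM and Lyz2 of macrophages at 20.8 to 36.7 CPM, while Ms4a1, Pax5 and Adgre1 had 0 counts, and these lists are given with the class II results. In bulk libraries fewer cells of a type and less RNA per cell cannot be told apart. Each spread between libraries may also hold variation of the sort and the amplification.

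The promoters of 6 members are shown first because the results turn on them: the abundant class I pair H2-K1 and B2m, the class II chains H2-Aa and H2-Eb1, and the H2-O partners, of which H2-Oa was abundant and H2-Ob scarce. Each run covers 250 bases before to 50 after a RefSeq transcript start, 5′ to 3′ on the gene's strand (RefSeq, GRCm38.p6). Capitals mark 2 patterns: TGACG or TGATG followed 10 to 25 bases on by ATTGG, the order of X2 and Y boxes in the promoter module, and AANNGAAA, the core bound by interferon regulatory factors. Matches on either strand were taken, and the patterns were chosen after the sequences had been seen.
H2-K1, chr17:34000284-34000583, minus strand: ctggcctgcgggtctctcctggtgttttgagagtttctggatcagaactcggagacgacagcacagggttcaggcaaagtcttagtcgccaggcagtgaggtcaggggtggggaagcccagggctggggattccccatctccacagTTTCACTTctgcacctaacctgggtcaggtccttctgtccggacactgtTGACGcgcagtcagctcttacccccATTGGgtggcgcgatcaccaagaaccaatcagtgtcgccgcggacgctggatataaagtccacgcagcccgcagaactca
B2m, chr2:122147437-122147736, plus strand: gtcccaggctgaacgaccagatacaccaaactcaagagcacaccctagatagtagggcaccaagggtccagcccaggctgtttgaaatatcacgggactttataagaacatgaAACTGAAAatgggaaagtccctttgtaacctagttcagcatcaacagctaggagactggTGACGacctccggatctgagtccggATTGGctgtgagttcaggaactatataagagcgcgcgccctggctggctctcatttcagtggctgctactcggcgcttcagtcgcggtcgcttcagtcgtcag
H2-Aa, chr17:34287774-34288073, minus strand: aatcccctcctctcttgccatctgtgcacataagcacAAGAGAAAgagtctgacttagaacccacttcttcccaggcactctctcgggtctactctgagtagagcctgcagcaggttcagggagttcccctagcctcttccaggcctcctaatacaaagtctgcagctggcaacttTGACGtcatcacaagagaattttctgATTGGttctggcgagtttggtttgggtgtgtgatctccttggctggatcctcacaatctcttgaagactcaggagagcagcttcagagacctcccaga
H2-Eb1, chr17:34305617-34305916, plus strand: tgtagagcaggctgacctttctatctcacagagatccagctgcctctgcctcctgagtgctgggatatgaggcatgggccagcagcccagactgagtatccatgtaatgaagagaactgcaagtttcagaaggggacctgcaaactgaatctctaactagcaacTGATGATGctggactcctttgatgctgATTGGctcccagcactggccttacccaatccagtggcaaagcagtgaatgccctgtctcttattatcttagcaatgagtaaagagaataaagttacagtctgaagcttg
H2-Oa, chr17:34092129-34092428, plus strand: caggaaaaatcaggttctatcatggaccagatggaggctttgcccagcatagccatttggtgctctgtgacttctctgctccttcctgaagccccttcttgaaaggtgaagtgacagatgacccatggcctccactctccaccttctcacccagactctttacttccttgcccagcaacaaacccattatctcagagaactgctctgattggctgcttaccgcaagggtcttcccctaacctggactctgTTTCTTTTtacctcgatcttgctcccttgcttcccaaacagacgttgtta
H2-Ob, chr17:34238655-34238954, plus strand: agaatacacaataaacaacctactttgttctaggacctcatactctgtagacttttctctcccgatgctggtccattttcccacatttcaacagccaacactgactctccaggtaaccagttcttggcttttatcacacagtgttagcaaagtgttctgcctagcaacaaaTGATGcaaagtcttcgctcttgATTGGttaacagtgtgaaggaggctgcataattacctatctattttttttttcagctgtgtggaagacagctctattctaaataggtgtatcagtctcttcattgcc

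The ordered pair of boxes stood in 18 of the 37 members that had a promoter entry, against 1.67% of 27025 genes with such an entry. Of the 6 promoters shown, H2-Oa was the exception, with ATTGG but neither TGACG nor TGATG at the set distance before it. In H2-K1 and B2m the boxes lay 20 bases apart, in H2-Aa 21, in H2-Ob 17 and in H2-Eb1 19 or 22, as its motif occurs more than once. AANNGAAA stood in 22 of the 37 members and in 26.7% of all genes. Members of a family share descent, so their promoters are not independent, and a match is not a bound site, nor does its lack speak of a factor. The ordered pair was also present in near-silent members such as H2-Eb2 and H2-DMb2. The 18 also hold the near-silent H2-M10.1, H2-M10.2, H2-M10.3, H2-M10.4 and H2-M10.5. In these the pair stood on the reverse strand only, with a shorter gap of 12 bases.

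Of the 50 members, 27 were detected, meaning at least 1 CPM in each of the 3 libraries. Of all genes counted, 31.1% were detected. All 5 class I assembly and control genes, both classical heavy chains and both class I-like genes were among them, with 7 of 25 non-classical class I genes, 3 of 5 class II chains, 4 of 6 class II loading genes and 3 of 4 class II control genes. A mean of 10 CPM was reached by 24 members, as by 22.7% of all genes, and a mean of 100 CPM by 9 members, as by 6.3%. A mean of 1000 CPM was reached by 4 members (B2m, H2-K1, Cd74 and H2-D1), as by 0.497% of all genes. At the other end, 9 members had no count in any library, and all belong to the H2-M group.

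**Figure D1:**
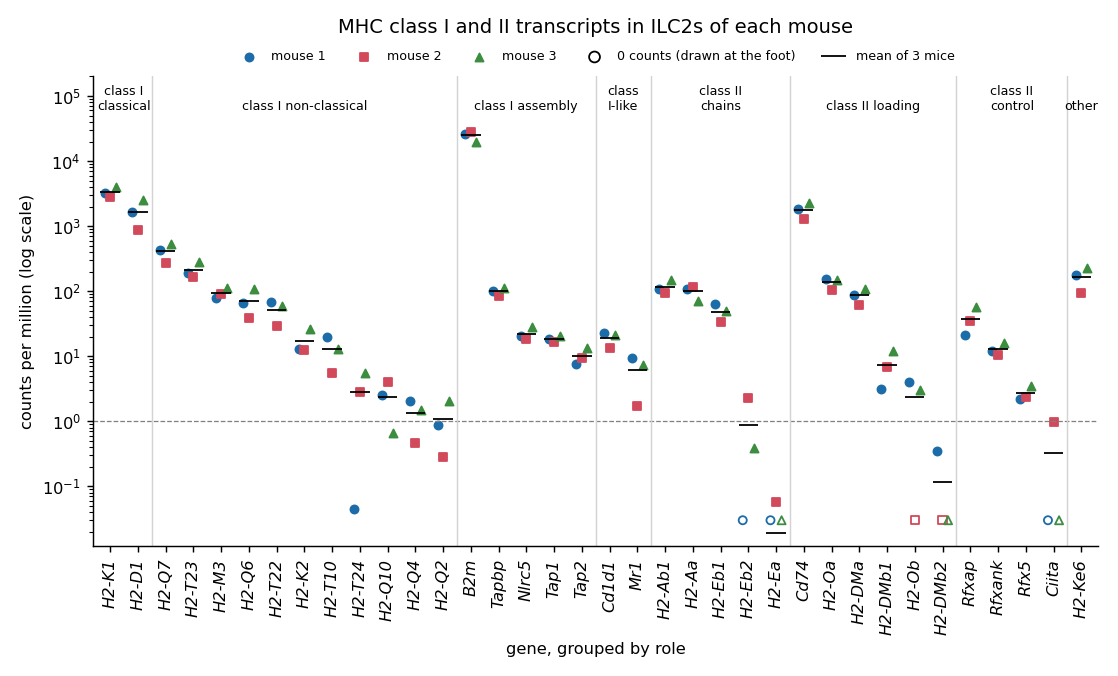
CPM of each member with a mean of at least 1 CPM, and of Ciita, H2-Ea, H2-Eb2 and H2-DMb2, in each mouse (log scale), with the mean over 3 mice as a bar and the detection limit of 1 CPM as a dashed line. B2m stands at 24827 CPM on average, while Ciita has counts only in mouse 2.

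B2m, the light chain common to all class I molecules (chromosome 2, 122147687 to 122153082, mm10), had 26289.8, 28270.5 and 19920.1 CPM in mice 1, 2 and 3. It ranked first of all genes by mean CPM and second per kb of exon, and was lowest in mouse 3. H2-K1, a classical heavy chain (chromosome 17, 33996012 to 34000619), had 3204, 2764 and 4001 CPM. H2-D1, the other classical heavy chain (chromosome 17, 35263094 to 35267497), had 1656, 882 and 2477 CPM. Both heavy chains were thus lowest in mouse 2 and highest in mouse 3, and B2m ran the other way.

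Levels between genes are compared per kb of summed exon length, on which H2-K1 had 1131 ± 213 CPM per kb (SD, n = 3) and H2-D1 648 ± 309. H2-K1 was above H2-D1 in each mouse, by 0.91 ± 0.49 in log2. With the length of the principal transcript in place of all exons the difference was 1.47. B2m was above H2-K1 in each mouse, by 4.67 ± 0.53 in log2, with 4.81, 5.13 and 4.09 in mice 1, 2 and 3. By principal transcript length it was 3.81. The classical pair together made up 85.9% ± 0.219 (SD, n = 3) of the summed class I heavy-chain level per kb, a share that was nearly the same in every mouse.

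Non-classical class I genes, which present restricted ligands or bind receptors of innate lymphocytes, were led by H2-Q7, a gene of the Qa-2 antigen (chromosome 17, 35439140 to 35443773), with 433, 271 and 538 CPM. H2-T23, which encodes Qa-1, the ligand of the CD94-NKG2A receptor, had 190.5, 165 and 283 CPM. H2-M3, which binds peptides with an N-formyl group, had 77.8, 89.6 and 110.4 CPM. H2-T23 and H2-M3 lay close together per kb, at 73.7 ± 21.6 and 64.4 ± 11.5, and differed by 0.17 ± 0.26 on the log2 scale with the sign reversed in mouse 2. With principal transcript lengths H2-T23 was 1.14 above H2-M3.

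H2-Q6, a neighbour of H2-Q7, had 64.7, 39.1 and 108 CPM. H2-T22, whose product is known as a ligand of some gamma delta T cell receptors, had 67.4, 29.5 and 59.5 CPM. Both were lowest in mouse 2. The pseudogenes H2-K2, with 13.01, 12.4 and 26.4 CPM, and H2-T10, with 19.5, 5.46 and 13.04 CPM, had 10.1 and 3.71 CPM per kb, below the 33.9 of H2-Q6 and the 15.3 of H2-T22. H2-T24 had 1, 50 and 145 counts, so that mouse 1 was under the limit of 3 counts and mouse 3 highest.

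H2-Q2, H2-Q4 and H2-Q10 each had a mean of 1.07 to 2.38 CPM and was below 1 CPM in some library. H2-T3, which encodes the thymus leukaemia antigen, had 1, 3 and 0 counts, H2-Q1 a single count in mouse 3, H2-M10.1 a single count in mouse 2 and H2-M11 at most 2 counts. H2-Bl, a pseudogene, had 3 to 10 counts per library. The genes without any count were H2-M1, H2-M2, H2-M5, H2-M9 and H2-M10.2 to H2-M10.6; some H2-M10 proteins are known from vomeronasal neurons. Along the MHC, genes that were not detected lay between detected ones, as H2-Q1, H2-Q2 and H2-Q4 did between H2-D1 and H2-Q6.

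**Figure D2:**
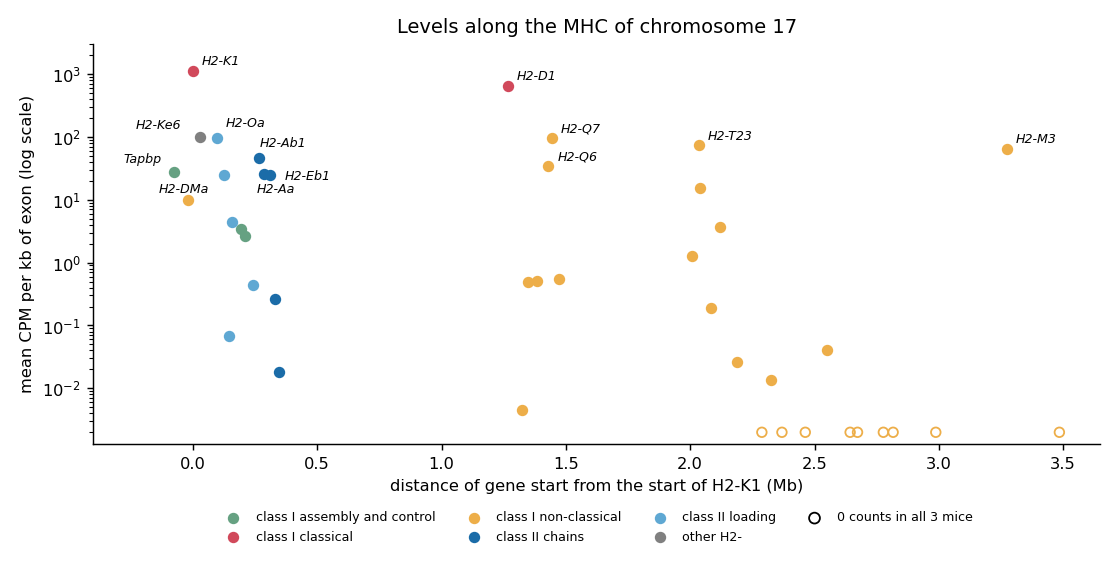
Mean CPM per kb of exon (log scale) of the 41 members on chromosome 17 against the distance of each gene's start from that of H2-K1, coloured by role, with members at 0 counts as open circles at the foot. The class II genes lie within 0.35 Mb of H2-K1, and 9 H2-M genes at 0 counts lie beyond H2-T23, with H2-M3 at 64.4 CPM per kb among them.

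Reads of close relatives could be divided or lost in the authors' counting. The share of a transcript's 50-base words that recur in a transcript of another GENCODE gene was 44.7% for H2-T22 (mainly H2-T10), 40.2% for H2-Q7, 32.0% for H2-Q6 and 28.8% for H2-T23. It was lower for H2-D1 (14.3%) and H2-K1 (8.79%), and 0 for B2m, Cd74, H2-Aa, H2-Ab1, H2-Eb1, H2-DMa, H2-Oa and H2-Ob. H2-Ke6 shared 79.8% with Gm20427. The levels of the H2-Q and H2-T genes are therefore uncertain, while H2-Aa, H2-Ab1 and H2-Eb1 had no word in common with another gene at 50 bases. In the annotation H2-T22, H2-T23 and H2-T24 also overlap A930015D03Rik (2.44 CPM) and H2-Oa overlaps BC051537 (1.61 CPM). The sources used here give no read length.

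The peptide supply of class I was present at modest levels. Tapbp, or tapasin, which tethers the heavy chain to TAP, had 100.2, 83.2 and 114 CPM. Tap1 and Tap2 are the subunits of the transporter, and Tap1 had 18.4, 16.7 and 20.7 CPM. Tap2 had 7.68, 9.44 and 13.3 CPM, with its lowest value in mouse 1. Per kb Tap1 exceeded Tap2 in each mouse, by 0.31 ± 0.26 in log2 and by 1.00 with principal transcript lengths. Nlrc5, the class I coactivator, had 20.4, 18.3 and 28.2 CPM.

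The wider class I route was fully detected. All 5 immunoproteasome and activator genes passed 1 CPM in each library, with Psmb8, a catalytic subunit, at 1161 ± 125 CPM (SD, n = 3) and Psmb10, another, at 382 ± 44.6. All 5 loading partners also passed, among them Erap1, the peptide-trimming aminopeptidase, at 126 ± 26.8 CPM, Canx at 374 ± 97.1 and Tapbpl, the TAP-binding-related protein, at 22.1 ± 11.8. Of the class I-like genes, Cd1d1, which presents lipids to NKT cells, had 22.6, 13.3 and 21.2 CPM. Of its 50-base words 25.8% recur in Cd1d2. Mr1, which presents vitamin B metabolites to MAIT cells, had 9.49, 1.71 and 7.40 CPM and was lowest in mouse 2.

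The class II chains of I-A were present in every library. H2-Ab1, the beta chain (chromosome 17, 34263227 to 34269418), had 109.5, 95.3 and 147 CPM. H2-Aa, the alpha chain (chromosome 17, 34282744 to 34287823), had 109.7, 115 and 71.2 CPM. H2-Ab1 was highest in mouse 3, where H2-Aa was lowest. Per kb H2-Aa was below H2-Ab1 in 3 of 3 mice, with a log2 difference of -0.81 ± 0.69. By principal transcript length the mean difference was -0.15, less than its SD of 0.69, with an exact p of 1, so that the order of these chains depends on the length used.

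H2-Eb1, the I-E beta chain (chromosome 17, 34305867 to 34316674), had 63.1, 33.4 and 49.4 CPM. Its partner H2-Ea had 0, 1 and 0 counts, so that a beta chain without its alpha chain was seen at the RNA level. The alpha chain is the gene named above as defective in this haplotype. H2-Eb2 had 0, 40 and 10 counts. Per kb H2-Eb1 was below H2-Ab1 in each mouse, with a log2 difference of -0.88 ± 0.42, and of -1.74 with principal transcript lengths. Summed over the chains, class II reached 282, 246 and 268 CPM, a spread of 18.0 (SD) about a mean of 266.

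Cd74, the invariant chain (chromosome 18, 60803849 to 60812652), had 1803, 1272 and 2267 CPM. It exceeded H2-Ab1 per kb in 3 of 3 mice, 25.2-, 20.4- and 23.6-fold, a log2 difference of 4.51 ± 0.16. This was the smallest SD among the 10 pairs compared, and the difference was 3.68 with principal transcript lengths. Cd74 thus stood nearer to the classical class I heavy chains than to the class II chains it accompanies, at 1061 ± 297 CPM per kb beside 1131 for H2-K1 and 45.7 for H2-Ab1.

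The loading factors were uneven within their own pairs. H2-DMa, the alpha chain of H2-DM, had 88.1, 60.8 and 109 CPM, lowest in mouse 2. H2-DMb1, a beta chain, had 72, 120 and 313 counts, a mean of 7.33 ± 4.44 CPM (SD, n = 3), and was lowest in mouse 1. H2-DMb2, the other beta chain, had 8, 0 and 0 counts. H2-DMa exceeded H2-DMb1 in each mouse, per kb 13.5-fold in mouse 1, 4.34-fold in mouse 2 and 4.43-fold in mouse 3. The mean log2 difference was 2.50 ± 0.82, and 3.32 with principal transcript lengths. H2-DMa overlaps Brd2 in the annotation (30.0 CPM), and H2-DMb1 shares 27.2% of its 50-base words with H2-DMb2. The part of either in the imbalance was not tested.

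H2-Oa, the alpha chain of the H2-DM inhibitor (chromosome 17, 34092379 to 34095234), had 155, 105 and 149.8 CPM. H2-Ob, its beta chain, had 90, 0 and 79 counts, or 3.97, 0 and 3.03 CPM. H2-Oa was above H2-Ob per kb 149-fold in mouse 1 and 189-fold in mouse 3. In mouse 2 it was at least 2359-fold higher against the floor of 3 counts, which covers counting error only. With principal transcript lengths these values were 95.8, 121 and at least 1514. This pair was added after its values had been seen. H2-DMa was below H2-Oa per kb in each mouse, with a log2 difference of -1.96 ± 0.19, and of -1.29 with principal transcript lengths. The alpha chain, not the beta chain, was thus the abundant partner for both H2-DM and H2-O.

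**Figure D3:**
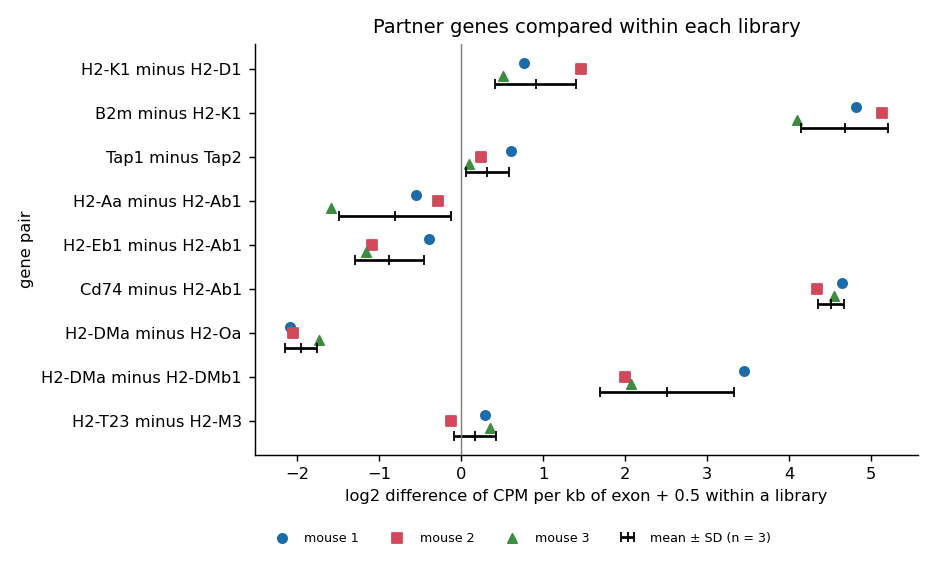
Differences of log2(CPM per kb of exon + 0.5) between paired members, 1 point per mouse; the bar gives mean and SD (n = 3). Cd74 lies 4.51 above H2-Ab1 with little spread, H2-Aa lies below H2-Ab1 in each mouse on this length and H2-T23 lies on both sides of H2-M3; pairs with Ciita or H2-Ob are left out because those genes had 0 counts in some library.

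Of the class II regulators, the RFX subunits were present and CIITA was nearly absent. Rfxap had 21.3, 34.2 and 56.5 CPM. Rfxank had 12.1, 10.4 and 16.2 CPM. Rfx5, the subunit that binds DNA, was at 2.69 ± 0.695 CPM (SD, n = 3), and per kb it was the lowest of the RFX genes, at 0.490 against 3.25 for Rfxank and 16.6 for Rfxap. The NF-Y and CREB genes Nfya, Nfyb, Nfyc and Creb1 were all detected, with Nfyb at 60.9 ± 6.41 CPM. Ciita (chromosome 16, 10480014 to 10531064) had 0, 17 and 0 counts, which allows up to 0.132 CPM in mouse 1 and 0.115 in mouse 3 and gives 0.967 CPM in mouse 2.

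Nlrc5 exceeded Ciita per kb 21.2-fold in mouse 2, and at least 173-fold in mouse 1 and 275-fold in mouse 3 against the floor of 3 counts. H2-Ab1 and H2-Eb1 had their lowest value in mouse 2, the library with Ciita counts, at 95.3 and 33.4 CPM. H2-Aa had its highest value there, at 115 CPM, as had H2-Eb2 with 40 counts. With 1 such library no test of this is possible.

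Markers of other cell types are given beside the class II values. Of 10 B cell markers 2 were detected, Cd79b at 139, 129 and 155 CPM and Cd79a at 231, 211 and 1087 counts, and 6 had 0 counts in all libraries, among them Ms4a1 and Pax5. Of 10 dendritic cell markers 3 were detected, Xcr1 at 26.1, 31.2 and 37.5 CPM, Zbtb46 at 37.9, 8.25 and 17.2 and Ccr7 at 11.4, 4.49 and 8.02, whereas Flt3, Clec9a, Fscn1 and Clec10a had 0 counts. Of 12 macrophage and monocyte markers 6 were detected, among them Lyz2 at 26.2 ± 9.14 CPM (SD, n = 3), and Adgre1 had 0 counts. The summed level was 141 to 204 CPM for the B cell list, 44.3 to 75.6 for the dendritic list and 52.5 to 101 for the macrophage list.

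Plasma cell markers, by contrast, were abundant in sum and uneven, with 9 of 10 detected and a summed 12665, 34498 and 63087 CPM in mice 1, 2 and 3. Most of that sum came from Igkc, at 4822, 18010 and 34158 CPM, and Jchain, at 5527, 13790 and 18473. Igha had 1742, 2040 and 9391 CPM, Xbp1 339, 341 and 604, Ighm 186, 242 and 335, and Mzb1 22.6, 24.4 and 85.4. Like Igkc and Jchain, they were lowest in mouse 1 and highest in mouse 3. Tnfrsf17, Prdm1 and Irf4 were low, at means of 7.17, 12.8 and 17.9 CPM. Irf4 was highest in mouse 2, and Sdc1 was not detected. The class II chain sum of 282, 246 and 268 CPM did not follow the order of the plasma cell sum, and neither did Cd74. Of the 27 detected members, H2-DMb1, H2-M3, Rfxap, Tap2 and Rfx5 did, being lowest in mouse 1 and highest in mouse 3. How many of all detected genes share that order was not counted, so nothing is read from these members. Of 9 ILC3 markers 4 were detected, among them Il22 at 9.35, 16.7 and 32.9 CPM, while Ccr6 had 0 counts and Il23r at most 0.171 CPM. Of 9 T cell markers 5 were detected, with Lat highest at 404 ± 46.4 CPM. The others were Cd28 at 24.8 ± 4.55 CPM, Trac at 13.5 ± 1.04, Cd3e at 6.92 ± 3.04 and Cd3d at 1.97 ± 1.03. Cd4 and Cd8a had 1 count or fewer per library. Of 11 gut epithelium markers 1 was detected, Epcam, at 29.4, 3.70 and 25.8 CPM. The part of any of these cells in the class II values was not tested.

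Genes that act after class II synthesis were mostly detected. Of 7 proteases and reductases of the route 6 passed 1 CPM in each library, among them Ctss, which trims the invariant chain, at 120.2 ± 14.4 CPM, and Lgmn at 119.9 ± 86.0, while Ifi30, the lysosomal thiol reductase, had 5.29, 0 and 0.920 CPM. Marchf1, the ubiquitin ligase that removes class II from the surface, had 0 counts in every library, Marchf8, a related ligase, had 3.35, 12.9 and 3.26 CPM, and Cd83, which opposes Marchf1, had 118 ± 15.2 CPM. Of 9 interferon gamma pathway genes 8 were detected, with the receptor chain Ifngr1 at 1513 ± 424 CPM and Irf1 at 115 ± 15.6, and Irf8 not counted as detected for its 0.569 CPM in mouse 2.

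Set against each other within libraries, class I heavy chains (H2-K1, H2-D1 and the H2-Q, H2-T and H2-M genes) exceeded the H2-A and H2-E chains 19.4-, 17.5- and 26.6-fold in mice 1, 2 and 3 in summed level per kb. The mean log2 difference was 4.38 ± 0.31 (SD, n = 3), and 3.96 with principal transcript lengths. The median of members with a mean of 1 CPM or more gave the opposite sign, -0.45; it gives each low H2-Q or H2-T gene the same weight as H2-K1. Among the 10 pairs, 9 had an exact two-sided sign-flip p of 0.25, the smallest that 3 libraries allow, and H2-T23 against H2-M3 had an exact p of 0.5. After Benjamini-Hochberg adjustment over the 10 pairs the exact p-values were 0.278 and 0.5, so none can pass 0.05 in this design.

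Spread between libraries was tested for every gene against the trend of genes of its abundance (edgeR quasi-dispersion F test, Benjamini-Hochberg over 9175 genes). Of the 28 members tested, 0 passed an adjusted p of 0.05, where 0.207% of all genes did. DESeq2 dispersion outliers and limma also gave 0 members. At an unadjusted p below 0.05 there were 3 members, H2-D1, H2-Ke6 and H2-Q6, against 4.37% of all genes. That count was 1 of 31 members without mouse 2, beside 408 of 9788 genes tested. Without mouse 1 it was 4 of 29 members, beside 576 of 9841 genes. H2-D1 had the lowest p of the members (unadjusted p = 0.0127, adjusted p = 0.977 in edgeR), with a highest value 2.81 times its lowest. H2-Ke6, which encodes a steroid dehydrogenase and bears the prefix for its position only, had 179.8, 93.2 and 224 CPM. The members' median coefficient of variation was 28.2%, beside 28.5% over all detected genes, at a median level of 70.7 CPM beside 23.5. Against the trend for their abundance, the median log2 ratio of the members' dispersion was 0.42, beside -0.42 over all genes tested.

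The order of the mice was then counted. Of the 27 detected members 20 were lowest in mouse 2, as were 37.1% of all detected genes. In mouse 3, 19 members had their highest value, as did 34.4% of all detected genes. Among class I heavy chains 7 of 8 were lowest in mouse 2, H2-M3 being the exception. B2m and H2-Aa were the members lowest in mouse 3, and H2-M3, Rfxap, Tap2, H2-DMb1 and Rfx5 were lowest in mouse 1. These counts were the same under library size alone, DESeq2 size factors and without immunoglobulin genes. They were made after the values had been seen. Mouse 2 also had the smallest library and the lowest summed ILC2 marker level, 11707 CPM against 15280 and 15168, and the part of these in the order was not tested.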

How the data were processed

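RNA was sequenced from 3 libraries of sorted ILC2s, which the labels' protocols trace to a Clontech SMARTer kit for low RNA input. The deposited table holds raw read counts per Entrez gene ID, as whole numbers. The submitters' processing notes name STAR 2.3.0, CASAVA 1.8.2 and the mm10 build. How reads were assigned to genes, and what became of multiply mapped reads, was not given in the sources used here. Strand is not recorded, so overlapping genes cannot be separated.

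Of 27179 IDs, 25275 matched a RefSeq symbol (GRCm38.p6, the assembly of mm10), and all 50 members had a summed GENCODE M21 exon length. CPM used TMM-scaled library sizes (edgeR 4.0.16, R 4.3.3). Pairs were compared on log2(CPM per kb + 0.5) with an exact two-sided sign-flip test. Spread between libraries was tested on raw counts with an intercept-only edgeR quasi-likelihood fit after filterByExpr (minimum count 10). The same test was run on simulated counts that gave all genes a common dispersion, with large changes added to some. That run does not show how small a spread among the members could be found. DESeq2 1.42.0 and limma 3.58.1 were alternatives. No 2 libraries agreed within sampling noise (chi-square 133 to 226 per degree of freedom). The p-values of the F test concern the spread between these samples. Those of the sign-flip test ask whether a difference within libraries is centred on 0. By rule, members with a mean of 1 CPM or more are described, those below by counts or range, and values per library are given from a mean of 10 CPM; those of Mr1, H2-DMb1, H2-T24, H2-Ob and Ciita were added after they had been seen. Some genes of the marker and pathway lists are not reported here by name. The members and lists were chosen with earlier results of these data known.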

Additional observations from a re-analysis of the deposited data

How the results depend on the processing

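No paired analysis was possible because only 1 group exists. The mean difference of each pair kept its sign in each alternative tried (library size alone, DESeq2 size factors, other pseudocounts, no division by length, principal transcript length, each mouse left out). H2-Aa was not below H2-Ab1 in every mouse without division by length or with principal lengths (exact p of 1 in both). The principal transcript length, the H2-Oa and H2-Ob pair and the counts of mouse order were added after the data were seen. With each mouse left out in turn, 28 to 29 members were detected and the class I to class II difference was 4.20 to 4.50. A minimum of 5 CPM left 24 members. The median in place of the sum reversed the class I to class II difference, to -0.45. The members at an unadjusted p below 0.05 numbered 3, beside 401 of 9175 genes, and 2 with a robust prior. They numbered 1 with no filter, beside 565 of 15092 genes, and 1 with a mean of 5 CPM or more, beside 360 of 7648. Members more variable than the trend numbered 0 in each setting; over all genes 19 passed, 31 without mouse 1, 1 without immunoglobulin genes and 0 with a robust prior (388 at an unadjusted p below 0.05), and the cause was not tested. Depth limits statements on Ciita, H2-Ea and the silent H2-M genes to the 0.115 to 0.171 CPM that a count of 0 allows.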

Other observations

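A list of 7 genes of costimulation and related signals was detected in part. In it Cd40 is a receptor, and Cd274 and Pdcd1lg2 encode ligands of the inhibitory receptor PD-1. Of the 7 genes 3 reached 1 CPM in each library, where 31.1% of all genes did. These were the PD-1 ligand genes and Icosl. Cd80 had 0 counts in each library, Cd40 at most 0.0882 CPM, and Cd86 0, 3.75 and 2.15 CPM in mice 1, 2 and 3. Pdcd1lg2, which encodes the PD-1 ligand PD-L2, had the highest level of the list, per kb of exon too, at 260.4 ± 12.9 CPM (SD, n = 3), followed by Cd274 (PD-L1) at 43.2 ± 16.97 and Icosl at 7.68 ± 4.20.

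Apart from Cd1d1 and Mr1, which were detected, a list of 9 genes outside the MHC that share the class I fold held none at 1 CPM in every library. Ulbp1 and H60b, ligands of the activating receptor NKG2D, had 2.15 ± 2.42 and 1.16 ± 0.819 CPM, and Azgp1 and H60c had 0 counts.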
